A study of Homo sapiens with 4 samples.

Results

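PML/RARA peaks whose summit lay more than 50 kb from the body of every protein-coding gene were examined in NB4, a cell line from human acute promyelocytic leukemia that bears the PML/RARA fusion. Of 46021 PML/RARA peaks, 45085 lay on chromosomes 1 to 22, and 3512 of these (7.79%) met the distance rule. They are called far peaks here. The remaining peaks on those chromosomes comprised 10450 outside coding genes within 50 kb, 19056 inside coding genes, and 12067 with a summit within 1 kb of either end of a coding gene. Membership rested on position alone, so no measured value of a peak chose it.

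The series held 4 libraries from NB4 cells, made by CUT&Tag, in which a transposase, guided by an antibody, inserts adapters into nearby DNA for sequencing. Antibodies against PPARα and PML/RARA gave 1 library each, labelled as treatment, and 2 IgG libraries were labelled as controls. The labels name no drug, dose or time, and NB4 is a single line. One peak list per antibody was used, with no replicate, so every interval given below covers counting error over peaks only and none measures variation between libraries. Read depth is unknown, and IgG coverage was not analysed here. The labels give no epitope for the PML/RARA antibody, so signal from unfused PML or RARA cannot be told apart from that of the fusion.

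PML/RARA joins a nuclear body protein to the retinoic acid receptor α, and the fusion retains the receptor's DNA-binding domain. Retinoic acid receptors and PPARα, a receptor for fatty acids, both pair with RXR and recognise direct repeats of a shared hexamer. Binding sites far from genes often fall in enhancers, which can act on promoters over long distances, and several enhancers of blood regulators lie in gene-poor sequence. The nearest gene is therefore a position marker and need not be the gene a site acts on.

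Some far peaks lay on promoters of noncoding genes, and the sequences of these are shown first because they are the far sites for which sequence was at hand. RefSeq promoter windows on GRCh38, 250 bases before to 50 after a gene's start, were matched by gene ID for 12569 noncoding genes on chromosomes 1 to 22, and 3956 of the windows began more than 50 kb from coding genes. A far PML/RARA peak overlapped 130 of the 3956 (3.29%), through 104 distinct peaks. A PPARα peak overlapped 52 (1.31%), of which 41 were among the 130. The following 5 windows were those under the far peaks with the highest −log10 q, and that of the let-7 host gene MIRLET7A1HG was added after its values were seen. Capitals mark the GC box (GGGCGG) and the nuclear receptor hexamer (AGGTCA), each on either strand.
LINC03108, chr1:234980727-234981026, minus strand: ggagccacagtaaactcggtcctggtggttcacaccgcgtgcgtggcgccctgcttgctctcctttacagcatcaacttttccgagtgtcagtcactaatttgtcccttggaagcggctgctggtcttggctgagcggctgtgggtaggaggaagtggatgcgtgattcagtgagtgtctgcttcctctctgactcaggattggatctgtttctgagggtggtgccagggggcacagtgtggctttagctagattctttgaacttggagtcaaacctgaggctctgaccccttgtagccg
LOC124901783, chr7:155205454-155205753, plus strand: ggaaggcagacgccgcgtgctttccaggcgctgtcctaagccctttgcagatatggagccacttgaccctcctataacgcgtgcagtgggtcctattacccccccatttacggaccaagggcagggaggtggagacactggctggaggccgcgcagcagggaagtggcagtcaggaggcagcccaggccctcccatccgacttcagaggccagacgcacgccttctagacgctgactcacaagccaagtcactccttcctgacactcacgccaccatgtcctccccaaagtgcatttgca
LOC105374406, chr4:37760797-37761096, plus strand: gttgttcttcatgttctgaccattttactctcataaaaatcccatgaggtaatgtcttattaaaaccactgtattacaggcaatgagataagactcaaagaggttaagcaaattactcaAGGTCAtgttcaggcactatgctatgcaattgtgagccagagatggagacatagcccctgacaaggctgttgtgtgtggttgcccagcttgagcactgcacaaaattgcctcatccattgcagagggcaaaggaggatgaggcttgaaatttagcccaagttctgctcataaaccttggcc
LINC02352, chr15:31215771-31216070, plus strand: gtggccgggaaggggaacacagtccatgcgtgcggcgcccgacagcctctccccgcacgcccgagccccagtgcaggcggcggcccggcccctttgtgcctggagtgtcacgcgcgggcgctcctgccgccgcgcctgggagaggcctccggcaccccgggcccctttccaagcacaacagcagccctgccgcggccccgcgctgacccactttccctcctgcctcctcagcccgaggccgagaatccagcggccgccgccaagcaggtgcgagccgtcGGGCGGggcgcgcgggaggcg
LOC105375198, chr7:26101389-26101688, plus strand: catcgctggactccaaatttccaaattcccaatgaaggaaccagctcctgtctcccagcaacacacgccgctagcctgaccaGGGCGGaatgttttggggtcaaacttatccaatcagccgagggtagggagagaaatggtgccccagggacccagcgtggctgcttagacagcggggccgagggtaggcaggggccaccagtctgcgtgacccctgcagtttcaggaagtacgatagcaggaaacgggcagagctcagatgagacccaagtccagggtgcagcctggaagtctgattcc
MIRLET7A1HG, chr9:94166008-94166307, plus strand: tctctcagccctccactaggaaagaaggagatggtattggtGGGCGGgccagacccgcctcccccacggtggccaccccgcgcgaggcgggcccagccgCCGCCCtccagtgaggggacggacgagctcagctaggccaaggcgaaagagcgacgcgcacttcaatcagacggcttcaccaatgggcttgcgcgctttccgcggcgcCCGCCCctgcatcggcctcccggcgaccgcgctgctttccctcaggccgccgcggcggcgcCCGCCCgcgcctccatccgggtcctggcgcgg

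All 6 windows shown lay under a PML/RARA peak that overlapped a PPARα peak. They were picked for a high −log10 q or after their values were seen, so they do not give the share for such promoters. Of all 130 windows under far peaks, 41 (31.5%) were overlapped by a PPARα peak. Of all far peaks, 14.9% overlapped one. Fold enrichment is the authors' ratio of signal to background at a peak, and the folds of the antibodies are not on a common scale. LINC03108, an lncRNA gene between IRF2BP2 and TOMM20, had a PML/RARA fold enrichment of 13.6 with a −log10 q of 357 and a PPARα fold of 10.97. The window contained neither motif. At LOC124901783, 92.2 kb from INSIG1, a regulator of sterol synthesis, the folds were 23.01 for PML/RARA and 7.62 for PPARα. LOC105374406 held 1 hexamer, no CpG and a GC content of 43.3%, with a PML/RARA fold of 25.3. LINC02352 stood at the other extreme of composition, with 76.3% GC and 37 CpG in its 300 bases, and a PML/RARA fold of 18.4. LOC105375198 lay 50.6 kb from NFE2L3, just past the distance rule, with a fold of 28.9.

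The MIRLET7A1HG window held 4 GC boxes and 38 CpG, with folds of 17.4 for PML/RARA and 8.85 for PPARα. Its transcript is the precursor of a let-7 cluster, whose mature members share the seed shown in capitals (bases 2 to 8).
hsa-let-7a-5p: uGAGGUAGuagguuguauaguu
hsa-let-7f-5p: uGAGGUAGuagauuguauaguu
hsa-let-7d-5p: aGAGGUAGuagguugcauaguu

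As a group, the 130 noncoding promoter windows under far peaks were richer in G and C than the 3826 far windows without one. Median GC content was 59.3% against 43.3%, and median CpG number was 12 against 3. A GC box, the site of SP factors, was present in 62 of the 130 windows (47.7%, 95% interval 38.9 to 56.6), in 8.65% of the far windows without a peak and in 44.95% of all 35116 RefSeq promoter windows. The ETS core CCGGAAG was present in 14.6% (9.03 to 21.9) against 2.30%, and in 10.3% of all windows. The hexamer AGGTCA was present in 24.6% (17.5 to 32.9) against 19.3%, and in 13.8% of all windows. The AP-1 site TGANTCA was present in 18.5% against 13.0% (7.71% of all windows), the RUNX site TGTGGT in 16.9% against 18.7% (13.1% of all), the CCAAT box in 36.2% against 39.0% (34.6% of all), the CRE core TGACG in 23.1% (16.1 to 31.3) against 13.2% (24.6% of all), and the E-box CACGTG in 7.69% (3.75 to 13.7) against 3.58% (7.26% of all). Both strands were searched, and matches of different motifs could share bases. For the GC box, ETS core, CRE core and E-box, the share without a peak lay below the interval, while the share over all RefSeq windows lay inside it. For the hexamer, AP-1, RUNX and CCAAT the share without a peak lay inside. The share over all RefSeq windows lay below the interval for the hexamer and for AP-1 (12.2 to 26.2). It lay inside the interval for RUNX (10.9 to 24.5) and CCAAT (27.9 to 45.0). Some of the 130 windows overlap each other and share a peak, so they are not independent. GC content was higher in the same windows, and its part in these frequencies was not tested.

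Far sequence carried PML/RARA summits at a low density. The 2677 stretches between neighbouring coding genes that lay more than 50 kb from both spanned 1019 Mb, 36.5% of the sequence between the outermost coding genes, and held 3354 summits, or 3.29 per Mb (95% Poisson interval 3.18 to 3.41). Sequence outside coding genes within 50 kb held 30.2 summits per Mb and coding gene bodies held 20.4, gene ends included in both. The other 158 far peaks lay beyond the outermost coding gene of a chromosome and entered no density. PPARα summits were also sparse in far stretches, at 0.678 per Mb against 5.78 outside within 50 kb and 4.64 inside coding genes.

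Within far sequence the density continued to fall with distance. It was 9.52 summits per Mb (8.96 to 10.1) at 50 to 75 kb from the nearest coding gene, 5.06 (4.67 to 5.47) at 100 to 150 kb, 2.51 (2.24 to 2.79) at 200 to 300 kb, 0.718 (0.598 to 0.855) at 500 to 1000 kb, and 0.143 (0.0876 to 0.222) beyond 1000 kb. The intervals of neighbouring distance classes did not overlap. The median distance of far peaks was 101 kb, and 187 far peaks lay more than 500 kb from a coding gene. Median fold changed little over the same classes, from 7.14 in the nearest to 6.65 in the most distant. Stretches longer than 1 Mb held 0.973 summits per Mb and shorter ones 6.03, and 126 of the 264 longer ones had no peak. The lengths include 98.1 Mb in empty pieces, each over 1 Mb with no annotated gene and no peak of either list. Of the 20 peaks beyond 1000 kb, 14 lay in stretches with an empty piece. Whether reads could be placed in these pieces was not tested, so their part in the fall is unknown.

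**Figure D1:**
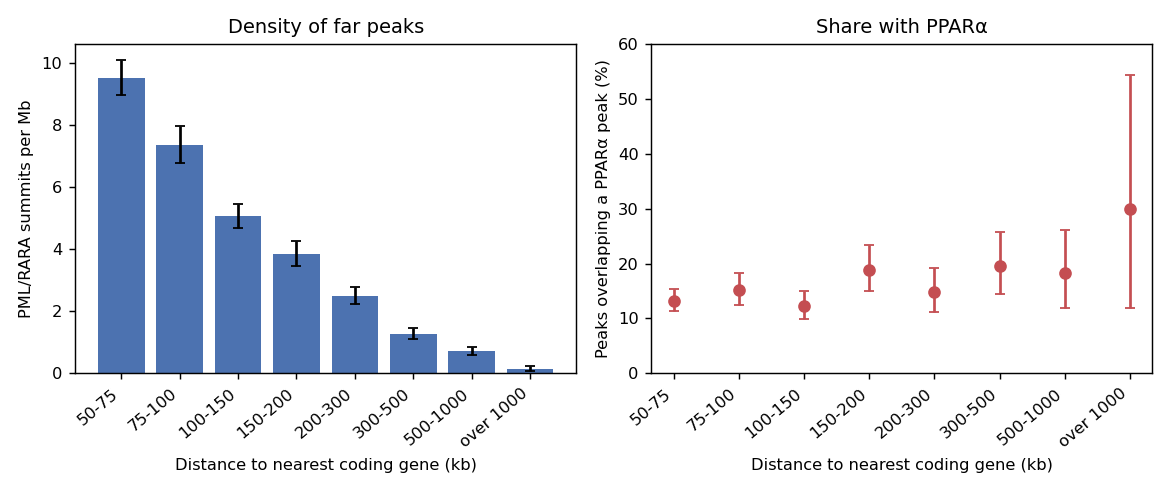
Left, PML/RARA summits per Mb of far stretch by distance to the nearest coding gene, with 95% Poisson intervals and, right, the percentage of those peaks overlapping a PPARα peak, with 95% Clopper-Pearson intervals. Distance classes are of unequal width, and their lengths include the empty pieces. Density falls from 9.52 per Mb to 0.143 per Mb, while the share with PPARα stays between 12.3% and 19.6% up to 1000 kb, and rests on 20 peaks beyond that.

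The distance rule cut through a continuous range. The closest members lay 50.008 kb from LIPI, 50.020 kb from TCERG1L and 50.037 kb from PLEKHG3, with folds of 4.98, 6.05 and 8.86. Just inside the limit, and so not members, were peaks 49.975 kb from GPC1, 49.974 kb from RPN1 and 49.935 kb from THY1, with folds of 9.95, 5.45 and 5.27. None of the 6 overlapped a PPARα peak. Peaks at 50 to 60 kb had a median fold of 7.14, and those at 40 to 50 kb one of 6.83.

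As peaks, far members resembled the others away from gene ends. Their median fold was 7.10 (quartiles 4.998 and 10.9, range 2.06 to 70.9) and their median width 203 bases. Peaks outside coding genes within 50 kb had a median fold of 6.997 and a width of 209 bases, and those inside coding genes 6.43 and 207 bases. Peaks at gene ends were stronger and wider, at 11.5 and 425 bases. Across chromosomes, far density ranged from 1.02 per Mb on chromosome 18 to 9.56 per Mb on chromosome 15, and far peaks made up 0.690% of the PML/RARA peaks of chromosome 19 and 15.8% of those of chromosome 13.

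The far peaks were held by a minority of stretches. At least 1 far peak lay in 999 of the 2677 (37.3%, 35.5 to 39.2), 442 stretches held a single peak, and 64 held 10 or more. Those 64 made up 6.397% of the far length and held 1089 peaks, 32.5% of all between coding genes. The 143 fullest stretches together held 50% of the peaks.

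The stretch between IRF2BP2, a corepressor partner of IRF2, and TOMM20, an import receptor of the mitochondrial outer membrane, held most, with 60 far peaks in 399 kb. Their folds ran from 2.57 to 31.6 with a median of 5.48, and 7 overlapped a PPARα peak. The highest, at chr1:235011695-235012325, stood 97.4 kb from TOMM20 and carried PPARα. Next came the stretch from TLE3, a Groucho family corepressor, to UACA, with 48 peaks in 457 kb and PPARα at 9. TLE3 was flanked on its other side by a further 29 peaks, 3 of them with PPARα, in the stretch that begins at RPLP1. This placed 3 of the 10 far peaks with the highest −log10 q in 1 stretch, at chr15:70462836-70463836, chr15:70486441-70487192 and chr15:70492611-70493255, with folds of 21.3, 19.5 and 21.3, all with PPARα.

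On chromosome 6, 33 far peaks lay between LY86, the secreted partner of the Toll-like receptor relative CD180, and RREB1, a zinc finger factor. A further 31 lay between CD83, a surface protein of mature dendritic cells, and JARID2, a component of Polycomb repressive complex 2. The stretch from VEGFA, the vascular growth factor, to MRPL14 held 26. In these 3 stretches 4, 5 and 4 of the peaks overlapped PPARα, shares of 12.1%, 16.1% and 15.4% that were close to the 14.9% of all far peaks.

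Other full stretches had no PPARα peak at any far member, against 14.9% of all far peaks. The 29 far peaks between RHOU, a small GTPase, and RAB4A, a GTPase of endosome recycling, had folds of 3.54 to 26.7 and a median of 7.38, and none overlapped PPARα. The 28 between CEBPB, a transcription factor of myeloid differentiation, and PTPN1, a tyrosine phosphatase, had folds of 2.41 to 32.7 and a median of 8.70, again with 0 overlaps. Of the 64 stretches with 10 or more far peaks, 11 had no overlap with PPARα, and of the 199 with 5 or more, 72 had none. The stretch between PTPRC, which encodes CD45, and NR5A2 was another of the 11, with 20 peaks, and is named after its values were seen. A share in a single stretch rests on few peaks, and differences between stretches were not tested.

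**Figure D2:**
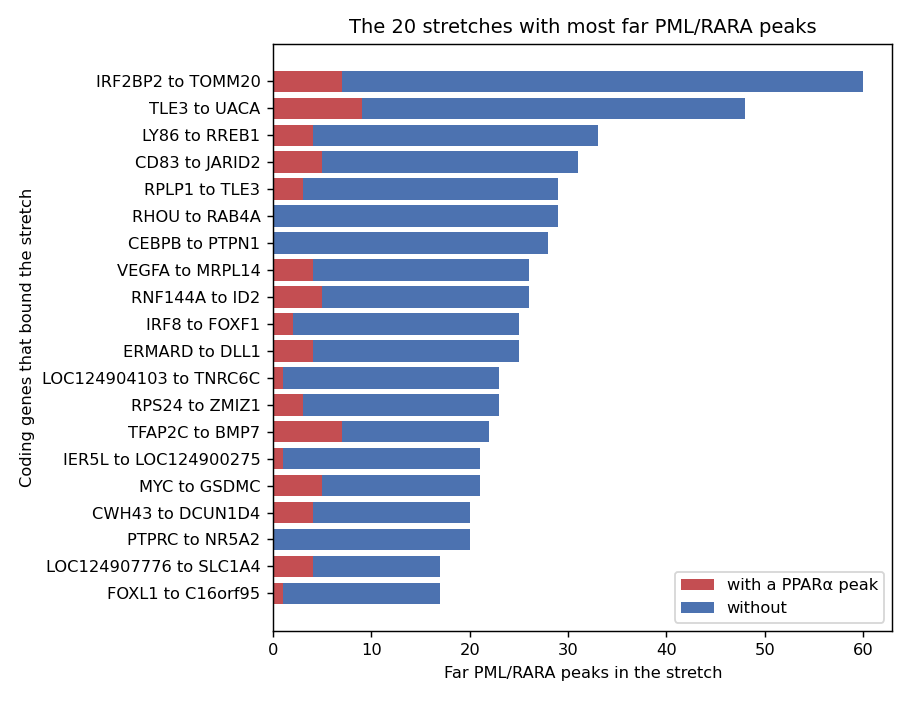
Number of far PML/RARA peaks in each of the 20 far stretches with most of them, named by the coding genes at both sides. Red marks peaks that overlap a PPARα peak and blue those that do not. IRF2BP2 to TOMM20 leads with 60, and RHOU to RAB4A, CEBPB to PTPN1 and PTPRC to NR5A2 show no red.

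Per unit of length, among stretches of at least 0.5 Mb, CD83 to JARID2 was the densest at 30.7 summits per Mb. It was followed by FOXL1 to C16orf95 at 27.4, DUSP4 to SARAF at 26.1, CXCR4 to THSD7B at 25.6 and RPS24 to ZMIZ1 at 25.2, each more than 7 times the 3.29 per Mb of all far stretches. DUSP4 is a phosphatase of MAP kinases, and CXCR4 is the chemokine receptor that retains progenitors in bone marrow. All 14 far peaks of the CXCR4 stretch lay nearer to CXCR4, with a median fold of 12.7 and PPARα at 2.

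**Figure D3:**
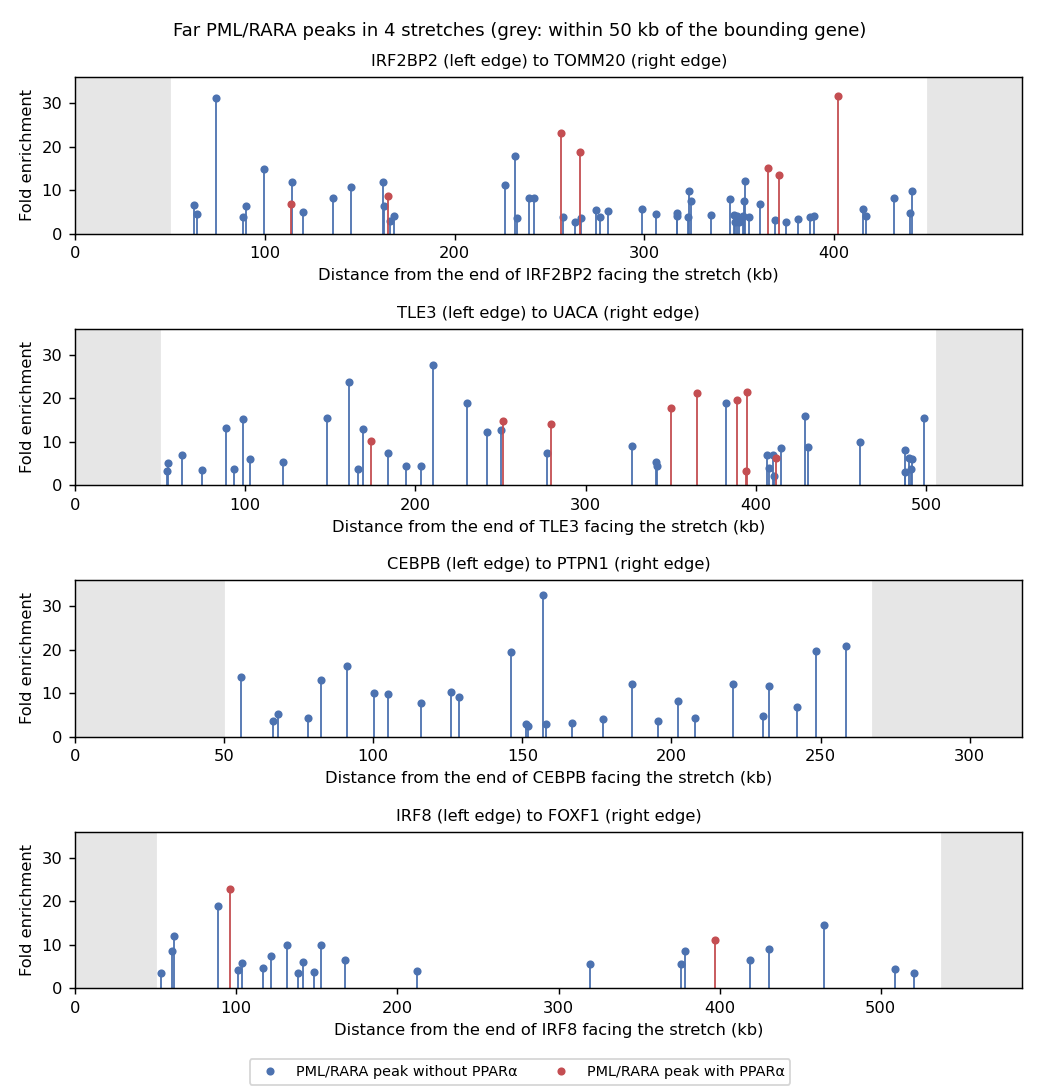
Each far PML/RARA peak in 4 stretches, by distance in kb from the left coding gene, with its fold enrichment on the vertical axis. The panels show the 2 fullest stretches, the CEBPB stretch, where no peak is red, and the IRF8 stretch, chosen after its values were seen, where 16 of 25 peaks lie nearer to IRF8.

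The median distance from a far summit to its nearest PML/RARA summit, far or not, was 9.23 kb. Runs of 3 or more far summits, each at most 0.0125 Mb from the next, numbered 283 and held 1192 far peaks (33.9%, 32.4 to 35.5). A further 750 were in pairs and 1570 had no other far summit within that distance. The same rule put 39.5% of the peaks outside within 50 kb and 43.6% of those inside coding genes in clusters of their own class, where density was higher. The far share moved with the linking distance, to 12.2% at 5 kb and 47.8% at 25 kb.

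The largest cluster held 26 summits over 103 kb between IRF2BP2 and TOMM20, with folds of 2.57 to 31.6, a median of 4.30 and PPARα at 3. Next was one of 15 beyond METRNL, past the last coding gene of its chromosome, with a median fold of 4.08. A cluster of 14 between LOC124904103 and TNRC6C, a scaffold of microRNA silencing, had folds up to 30.3 and no PPARα. The stretch from CEBPB to PTPN1 held 2 clusters of 11, over 73.2 kb and 61.8 kb, with highest folds of 16.2 and 32.7. Median fold was 6.88 in clusters, 7.37 in pairs and 7.03 for lone peaks. The median −log10 q was 10.5 in clusters, 9.39 in pairs and 7.98 for lone peaks. PPARα overlapped 14.7% (12.7 to 16.8) of those in clusters, 18.3% (15.6 to 21.2) of those in pairs and 13.4% (11.8 to 15.2) of lone peaks. At the level of clusters, 111 of the 283 held at least 1 peak with PPARα, as did 109 of 375 pairs and 211 of 1570 lone peaks. A larger run has more members that can overlap, so these counts are not alike.

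A PPARα peak overlapped 523 of the 3512 far peaks by at least 1 base (14.9%, 13.7 to 16.1), against 21.3% of all PML/RARA peaks on chromosomes 1 to 22. The share was 12.7% (12.1 to 13.4) outside coding genes within 50 kb, 11.8% (11.3 to 12.2) inside them and 45.6% (44.7 to 46.4) at gene ends. Far peaks with PPARα had a median fold of 11.5 and a width of 359 bases, and those without had 6.43 and 188 bases. The summits of overlapping peaks lay a median of 151 bases apart, and 65.6% of the pairs were within 200 bases.

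The overlap followed peak strength at every location. Among far peaks it was 2.90% (1.34 to 5.44) in the lowest decile of fold, 11.1% (8.19 to 14.6) in the fifth and 49.8% (43.7 to 56.0) in the highest. Within deciles, the Mantel-Haenszel odds ratio of a PPARα peak for far peaks against the other peaks away from gene ends was 1.18 (1.06 to 1.31). It was 1.21 (1.08 to 1.37) against peaks outside within 50 kb and 1.15 (1.03 to 1.29) against those inside coding genes, so the pooled excess was small. The excess was not uniform. In the ninth decile the far share was 26.4% (21.0 to 32.3), against 35.1% (32.5 to 37.8) inside coding genes and 29.7% (26.6 to 32.9) outside within 50 kb. In every other decile it was above the share inside coding genes, and above that outside within 50 kb except in the lowest. Against gene ends the pooled odds ratio was 0.310 (0.278 to 0.345), and with gene ends included, against all other peaks, 0.697 (0.628 to 0.773). When the PML/RARA list was shortened to the 9573 strongest peaks by −log10 q, the ratio away from gene ends was 1.08 (0.882 to 1.33).

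**Figure D4:**
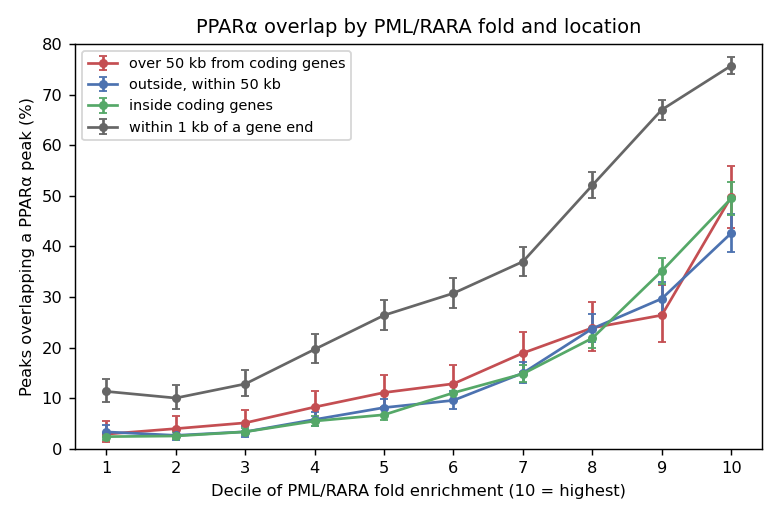
Percentage of PML/RARA peaks overlapping a PPARα peak, by decile of the PML/RARA fold over all peaks on chromosomes 1 to 22, for 4 locations, with 95% Clopper-Pearson intervals. Far peaks (red) rise from 2.90% to 49.8% close to the other peaks away from gene ends, and lie below them in the ninth decile. Gene ends (grey) lie above the other locations throughout.

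Seen from the PPARα list, 714 of 9573 peaks were far from coding genes, and 471 of these (66.0%, 62.4 to 69.4) overlapped a PML/RARA peak, against 90.0% of all PPARα peaks. The share was 84.99% outside within 50 kb, 83.5% inside coding genes and 97.9% at gene ends. The intervals of the far and the other classes did not overlap. The 243 far PPARα peaks without PML/RARA had a median PPARα fold of 4.23, and the 471 with it 6.24.

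Flanking genes were described through the 4390 coding genes that bound a far stretch. Of these, 1275 (29.0%) were the nearest coding gene of at least 1 far peak, 640 of them for a single peak, and 189 for 5 or more. Genes nearest to a far peak bounded more far sequence, a median of 230 kb against 124 kb for the other 3115. A PML/RARA peak lay within 1 kb of an end in 707 of the 1275 (55.5%, 52.7 to 58.2), in 40.8% (39.0 to 42.5) of the 3115, and in 45.0% of all that bound a far stretch. The share was 63.5% (56.2 to 70.4) for genes nearest to 5 or more far peaks. A PPARα peak lay at an end of 31.0% (28.4 to 33.6) of the 1275, 24.0% (22.5 to 25.5) of the 3115 and 26.0% of all 4390. Among all coding genes on chromosomes 1 to 22, 59.2% carried a peak of PML/RARA at either end, so the 45.0% of genes beside far stretches was lower than that of coding genes at large.

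The gene with most far peaks was TOMM20, with 39, then TLE3 with 36, UACA with 25, ID2 with 24, and IRF2BP2 and JARID2 with 22 each. Of these 6, UACA alone lacked a PML/RARA peak at both ends, and PPARα was at an end of TOMM20, IRF2BP2 and JARID2. Over all genes that bound a far stretch, PML/RARA was at an end of 45.0% and PPARα of 26.0%. Over all coding genes on chromosomes 1 to 22 the shares were 59.2% and 33.1%.

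The gene lists from here on were chosen with earlier results of these data known, so their shares are descriptive. Hematopoietic transcription factors were nearest to far peaks in 21 of the 34 listed members that bound a far stretch (61.8%), against 29.0% of all 4390 genes. The listed members also bounded more far sequence, a median of 440 kb against 152 kb for all, and its part in the share was not tested. Their median number of far peaks was 1.5, against 0 over all 4390 genes. ID2, an inhibitor of basic helix-loop-helix factors, had 24 with a highest fold of 21.0. CEBPB had 16 with a highest fold of 32.7, and IRF8, a factor of monocyte and dendritic cell fate, had 16 with a highest fold of 22.8. MYC, the growth-promoting factor, had 13 with a highest fold of 21.97. ETS2 and ZEB2, an ETS factor and a zinc finger repressor, had 8 each, with highest folds of 21.6 and 37.7. PPARα overlapped 21 of the list's 136 far peaks, close to the share over all far peaks, 5 at ID2 and 0 at CEBPB. Members without a far peak included MYB, IKZF1, MEIS1 and LMO2.

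Cytokine, chemokine and signalling regulators were nearest to far peaks in 15 of 21 (71.4%, against 29.0% of all genes that bound a far stretch). Their median was 2 far peaks, and they bounded a median of 223 kb of far sequence, against 152 kb for all. CXCR4 had 16. The MAP kinase pathway inhibitors DUSP4, SPRY2 and SPRY1 had 10, 10 and 8, and TNFAIP3, an inhibitor of NF-κB signalling, had 8 with a highest fold of 24.5. JUN, an AP-1 subunit, had 7. PML/RARA lay at an end of all 6 of these genes, and 17 of the 21. The share was 45.0% over all genes that bound a far stretch and 59.2% over all coding genes on chromosomes 1 to 22. The 6 were named for having most far peaks in the list.

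Retinoid pathway genes and nuclear receptors were nearest to far peaks in 5 of 16, or 31.3%, close to the 29.0% of all genes that bound a far stretch. NR2F2, an orphan nuclear receptor, had 7, and CYP26B1, which degrades retinoic acid, and RXRA, the shared partner of both receptors, had 6 each. NR3C1, the glucocorticoid receptor, had 1. None of the 23 far peaks of this list overlapped PPARα, against 14.9% of all far peaks, and the difference was not tested. RARB, a classic retinoic acid target, bounded a far stretch and was nearest to none.

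Fatty acid and lipid genes, a class with known PPARα targets, were nearest to far peaks in 5 of 13 (38.5%, against 29.0% of all genes that bound a far stretch). ABCA1, a cholesterol exporter, had 6, INSIG1 had 5, LPIN1 had 3, and LIPC and LIPG had 1 each. PPARα overlapped 4 of these 16 peaks, a number too small to set against the 14.9% of all far peaks, with 1 at each of ABCA1, INSIG1, LPIN1 and LIPC. PDK4, PLIN2 and LPL bounded a far stretch and had none.

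Among lineage markers, 3 granulocyte and monocyte genes bounded a far stretch: CD93 had 12 far peaks, CSF3R, the G-CSF receptor, had 5, and CEACAM8 had 0. Lymphoid genes were nearest in 4 of 8, led by BCL11B with 6, and TFRC, with 3, was the only one of 3 erythroid or megakaryocyte genes. Of 17 neuron, liver and muscle genes, 2 were nearest to a far peak (11.8%), against 29.0% of all genes that bound a far stretch. These were FOXA2 and TBX5, with 1 each and folds of 4.998 and 5.71. The lists differed in how much far sequence they bound, with medians of 440 kb for hematopoietic factors, 223 kb for signalling regulators, 128 kb for neuron, liver and muscle genes and 152 kb for all. Per Mb of the far sequence nearer to their members, the far peaks numbered 9.78, 14.6 and 0.386, against 3.29 for all. By that measure the order of the lists differed from that of the shares. Granulocyte and monocyte markers had 84.3 from 3 genes, erythroid and megakaryocyte markers 12.7 from 3 genes, fatty acid and lipid genes 12.2 and retinoid pathway genes 4.27. Lymphoid genes, whose share was 50%, had 2.84, below the value for all.

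**Figure D5:**
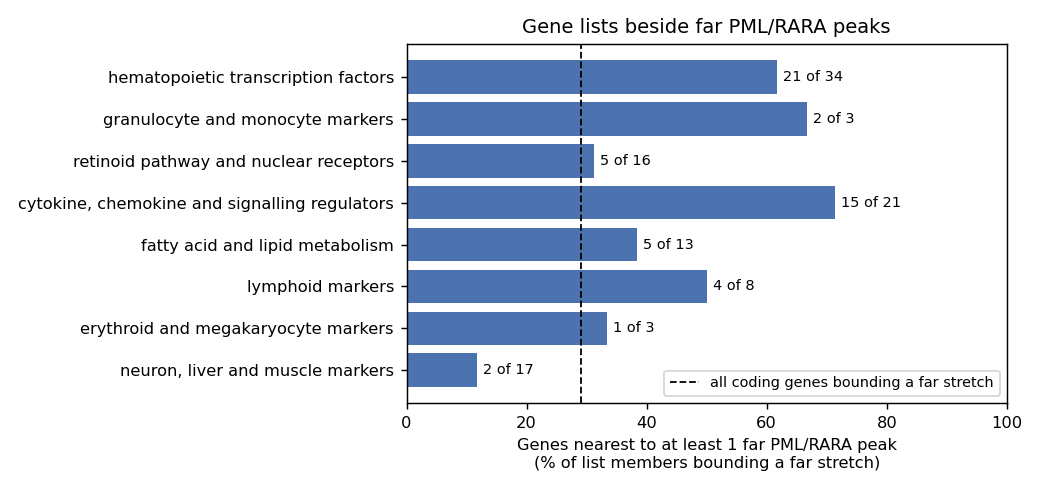
For each gene list, the percentage of members bounding a far stretch that are the nearest coding gene of at least 1 far PML/RARA peak, with the counts at the bars. The dashed line is the 29.0% of all such coding genes. Neuron, liver and muscle genes (11.8%) lie below it and the other 7 lists above it, from 31.3% for retinoid pathway genes to 71.4% for signalling regulators. The lists were chosen with earlier results of these data known.

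Against all annotated genes, not coding genes alone, 2077 far peaks (59.1%) lay between genes, 955 (27.2%) inside a noncoding gene, and 480 (13.7%) within 1 kb of an end of one. PPARα overlapped 22.5% (18.8 to 26.5) of those at noncoding ends, 13.1% (11.01 to 15.4) inside and 14.0% (12.499 to 15.5) between genes. At matched fold the odds ratio for noncoding ends against the other far peaks was 1.55 (1.20 to 2.001). Most of the 480, 285, were at lncRNA genes, and 35 were at tRNA genes, with PPARα at 23.5% and 25.7%. A miRNA gene was nearest for 11, among them MIR4425 in the stretch of RUNX3, with a fold of 23.5 and no PPARα. Segments of antigen receptor genes, which the gene table does not class as coding, were the nearest noncoding entry of 53 far peaks, 36 of them on chromosome 14 and 6 of them with PPARα.

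Some strong far peaks lay at an rRNA gene, beside pseudogenes or beyond the outermost coding genes. A peak at chr5:11450-11803, beyond PLEKHG4B, had a fold of 55.9 and no PPARα. One beyond FRG2B at chr10:133787065-133787422 had a fold of 52.2 and no PPARα, and one beyond OR4F5 at chr1:10003-10469 had a fold of 33.4 with PPARα. Others stood near ADRA2C, beside the pseudogene FAM86EP, and between FRG2 and DUX4, with folds of 34.8 and 30.5, both with PPARα. At an rRNA gene on chromosome 21, RNA45SN2, the fold was 47.0, with PPARα. The sources used here do not state how reads with several matches were treated. Outside the stretches beyond the outermost genes and those with an empty piece over 1 Mb, 3259 far peaks remained, with a median fold of 7.08 and PPARα at 14.5%. The 95 in stretches with such an empty piece had PPARα at 25.3% (16.9 to 35.2).

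Other strong far peaks without PPARα were near KRABD3 on chromosome 7, beside the pseudogene ZNF767P, with a fold of 28.3, beyond LOC105375116 at chr7:89133-89809, with a fold of 29.3, and in the CEBPB stretch at chr20:50349224-50349653, with a fold of 32.7 and a distance of 157 kb from CEBPB. The most distant members lay at up to 4894 kb from a coding gene, on chromosome 22 beyond OR11H1.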

How the data were processed

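CUT&Tag peaks were taken from the deposited narrowPeak lists, 1 per antibody. The authors' fold enrichment of each peak is a ratio to background, and the deposited q-value is a −log10 value, per the layout of the files. The submitters' processing notes name hg38, MACS 1.4.2, Bowtie2 2.2.9, bedtools and SAMtools without roles or settings. The narrowPeak layout of the lists is that of later MACS releases, so the version that made them is uncertain. The use of IgG as control and the handling of duplicates are not given in the sources used here. Depth is unknown.

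Genes were the 18973 protein-coding genes on chromosomes 1 to 22 in a RefSeq table of GRCh38.p14, the assembly of hg38. A further 153 coding rows whose positions belong to other scaffolds were left out. The table gives neither strand nor exons, so introns and UTRs were not separated. Peaks on X and Y (936 PML/RARA, 256 PPARα) were left out. Distances run from summit to gene body. Shares carry 95% Clopper-Pearson intervals, densities 95% Poisson intervals, and odds ratios were pooled over 10 deciles of fold. Peaks are not replicates, and no p-value was computed. Python 3.11.15, pandas 2.3.3, scipy 1.17.1 and statsmodels 0.14.6 were used, and the procedures were tested on simulated data.

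The members and gene lists were chosen with earlier results of these data known. Named genes were those of the 8 fullest stretches, the 5 densest, the 10 peaks with the highest −log10 q and the 5 highest without PPARα, the 5 largest clusters, up to 6 members of each list, noncoding genes at the 10 highest peaks near their ends, and the 3 peaks on either side of the limit. A few of the items so chosen are not reported here. Names outside this rule are marked, or were added as list members without far peaks or as genes with most far peaks, after their values were seen. Alternatives were other distance limits, stricter lists, other overlap and linking rules, and left-out stretches.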

Additional observations from a re-analysis of the deposited data

How the results depend on the processing

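No paired analysis was possible because each antibody has 1 peak list and no replicate. The 8 main values were recomputed under 17 alternatives, 4 of them chosen after seeing the data, giving 83 values, of which 51 stayed within set bounds. The bounds were the main interval or, for the number of far peaks, 1.5 times the count. For the odds ratio they were the same side of 1 with an interval that left out 1. With a distance limit of 25 kb there were 5861 far peaks at 4.75 per Mb, 37.0% in clusters, and 30.8% of genes nearest to one. With 100 kb there were 1773 at 2.02 per Mb, 32.9% of stretches had a peak, 30.5% of peaks were in clusters, and 24.5% of genes were nearest to one. With −log10 q of at least 5, density was 2.31 per Mb, 30.6% of stretches had a peak, 26.2% of peaks were in clusters, 19.6% had PPARα, the median fold was 9.01, and 23.3% of genes were nearest to a peak. With fold of at least 5 these were 2.34 per Mb, 31.0%, 24.1%, 19.3%, 8.93 and 23.6%. The share in clusters was 12.2% with summits at most 5 kb apart and 47.8% with 25 kb. The share with PPARα was 9.79% for summits within 200 bases, 12.2% for an overlap of at least 50% of the shorter peak, and 45.6% for the PML/RARA list shortened to the length of the PPARα list. In that shortened list the odds ratio was 1.08, its interval reaching below 1. For the full list against all other peaks, gene ends included, it reversed to 0.697. For the full list matched on deciles of both fold and width it was 1.38. Density was 3.64 per Mb with empty pieces over 1 Mb left out of the length, and 3.64 in stretches without such a piece, 3.08 with gene rows of other scaffolds kept, and 3.41 with LOC-named genes left out. Empty pieces are defined by holding no peak, so leaving them out of the length could only raise density. The stretches without such a piece were picked by the same rule. No rows shared an interval, so keeping 1 row per interval could change nothing, though its values count among the 51. Leaving out the IRF2BP2 to TOMM20 stretch moved none of the 8 values past those bounds. Depth is unknown and limits weak peaks in both lists, so an absent PPARα peak at a far site is a site below threshold in a list of 9573 peaks, not a measured absence.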
